A study of Selaginella nipponica with 6 samples.

Results

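The *SPL*s of the miR156 clade were described as a single pool of transcripts in the lycophyte *Selaginella nipponica*. The pool held 6 of the 206768 unigenes in the deposited counts. Of these, 5 are the unigenes that the phylogeny of the study places in the clade, namely TRINITY_DN100480_c3_g6, TRINITY_DN100333_c1_g1, TRINITY_DN103335_c1_g1, TRINITY_DN102464_c4_g1 and TRINITY_DN103335_c0_g1. The last, TRINITY_DN105179_c0_g2, was included because the study describes an overlap of its sequence with DN103335_c1_g1. They were taken by name from the study. The study reported DN105179_c0_g2 together with its higher level in the erect shoots of these same libraries. Its call below, and its part in separating the pool, are thus not independent of that result. Names are given below without the prefix TRINITY_. In a Trinity identifier, DN numbers a cluster of reads, c a component of that cluster, and g a gene assembled from the component.

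All plants grew wild and untreated in 1 population. The prostrate shoots gave 3 libraries and are the early creeping shoots, taken with their emerging roots. Another 3 came from the erect shoots, the later upright shoots, taken with their sporangia. Replicates were subsamples of what was harvested for each type of shoot, so p-values measure the spread between such subsamples. Roots, sporangia and the type of shoot itself cannot be told apart in this design, nor can fewer cells with a transcript be told apart from less of it in each cell. The counts carry no gene names, so markers of roots and sporangia were not examined.

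*SPL* genes encode transcription factors that bind DNA through the SBP domain. In flowering plants, many of them carry a site for the microRNA miR156, which cuts their transcripts or represses their translation. miR156 is abundant in young *Arabidopsis* plants and declines with age, and its *SPL* targets then promote adult leaves and flowering. Several *SPL*s of *Arabidopsis* are held back by this microRNA together and overlap in function, which makes both their summed transcripts and the part of each in the sum worth describing. The study places DN100480_c3_g6 and DN100333_c1_g1 near *SPL13* of *Arabidopsis*, one of the miR156 targets that promote the adult phase and flowering. The other 3 unigenes of the clade are treated here as a second group, together with the overlapping DN105179_c0_g2. DN100480_c3_g6 lacks a miR156 site according to the study. Sequences of the unigenes were not analysed here, so none of these assignments was examined.

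The libraries held between 15679196 and 20244006 estimated counts each. All 6 members passed the filter on low counts, as did 23275 unigenes in all. Levels are in CPM, which are counts scaled to a common library total with the TMM method. Lengths of the unigenes were not used, so CPM and shares of different members also reflect their lengths, and a share is one of counted fragments rather than of molecules. The fold change of a member, and a difference in the log2 ratio of a pair of members, are free of length. Differences in shares, and in measures built on summed counts, are not. Log2 fold changes are erect over prostrate, from the quasi-likelihood test of edgeR with Benjamini-Hochberg adjustment over the whole table, and "edgeR adjusted p" stands for its result. Calls needed an adjusted p below 0.05 together with a log2 fold change beyond 1 in either direction, the thresholds of the study.

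The summed pool was counted more often in the erect shoots, but this difference did not pass the test. Prostrate replicates 1 to 3 had 740.8, 705.6 and 521 CPM, whereas erect replicates 1 to 3 had 971.6, 844.4 and 761.8 CPM. Each erect library thus lay above each prostrate library, with erect replicate 3 and prostrate replicate 1 the closest. The mean was 655.8 ± 118 CPM (SD, n = 3) for prostrate and 859.3 ± 105.7 CPM (SD, n = 3) for erect libraries, a ratio of 1.31. With the members replaced by their sum in the whole table, the pool had a log2 fold change of 0.39 with a standard error of 0.204 (edgeR adjusted p = 0.256), and of 0.23 without prostrate replicate 3. It took between 0.0501 and 0.0713% of all counts in the prostrate libraries and between 0.0775 and 0.0998% in the erect ones. When DN105179_c0_g2 was left out of the sum, the types of shoots overlapped (log2 fold change 0.34, edgeR adjusted p = 0.328).

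Of the 6 members, 1 was called higher and 1 lower in the erect shoots. Over the whole table, 7.94% of tested unigenes were called higher in the erect and 5.31% higher in the prostrate shoots. Libraries of the types of shoots were fully separated for 3 members with higher levels in the erect shoots, as for 19.4% of tested unigenes, and for 1 with lower levels, as for 16.8%. The members had a median log2 fold change of 0.43, against -0.01 for everything tested.

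**Figure D1:**
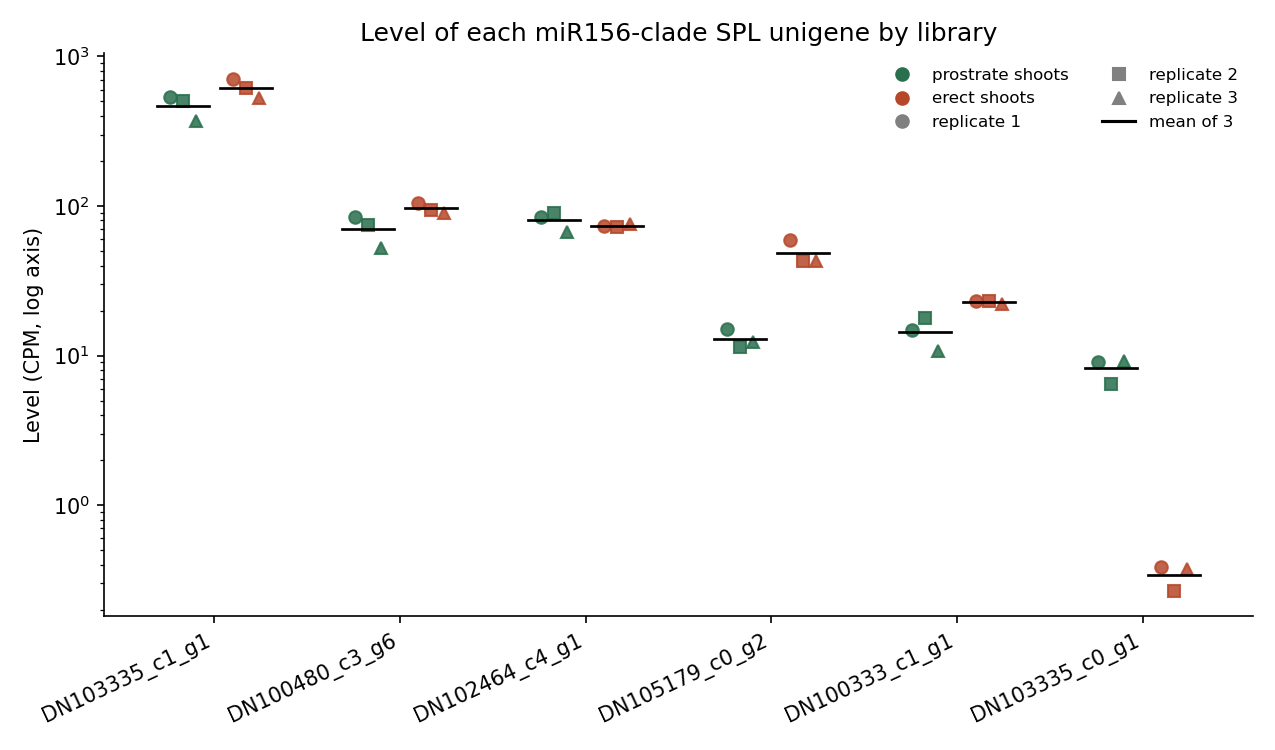
Level of each of the 6 unigenes in each library, in CPM on a log axis, with prostrate shoots in green, erect shoots in red, a symbol for each replicate number and a bar for the mean of 3 libraries. DN103335_c1_g1 was at 369.4 CPM or more in every library, and DN103335_c0_g1 lay between 6.49 and 9.16 CPM in the prostrate but between 0.269 and 0.385 CPM in the erect libraries.

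DN103335_c1_g1 had the most counts of the members in every library. Prostrate replicates 1 to 3 had 532.7, 504.7 and 369.4 CPM, whereas erect replicates 1 to 3 had 710.3, 611 and 530.5 CPM. Erect replicate 3 lay just below prostrate replicate 1, so the types of shoots overlapped. Its log2 fold change was 0.40 with a standard error of 0.211 (edgeR adjusted p = 0.264), and 0.23 without prostrate replicate 3. As a share of the pool, it held 71.9, 71.5 and 70.9% in prostrate replicates 1 to 3, and 73.1, 72.4 and 69.6% in erect replicates 1 to 3. Its mean share was 71.4% ± 0.506 (SD, n = 3) for prostrate and 71.7% ± 1.82 (SD, n = 3) for erect libraries. This difference of 0.256 percentage points was smaller than the spread among the erect libraries (exact permutation test, two-sided p = 0.9). Its sign turned without prostrate replicate 3, without erect replicate 1 or without erect replicate 2, with values from -0.445 to 1.29 percentage points as libraries were left out in turn.

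No difference in the dominance of DN103335_c1_g1 was thus resolved. Its counts were between 5.51 and 6.74 times those of the next member in a library. Per length, it would therefore lose the first place only to a member shorter by at least that factor. The inverse Simpson index, the number of equally counted members that would be as even as the pool, was 1.86 ± 0.0239 (SD, n = 3) for prostrate and 1.86 ± 0.0802 (SD, n = 3) for erect libraries (exact permutation test, two-sided p = 1). Of the net difference of 203.4 CPM between the types of shoots, DN103335_c1_g1 made up 72.9%, next to its 71.5% of the mean prostrate level.

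**Figure D2:**
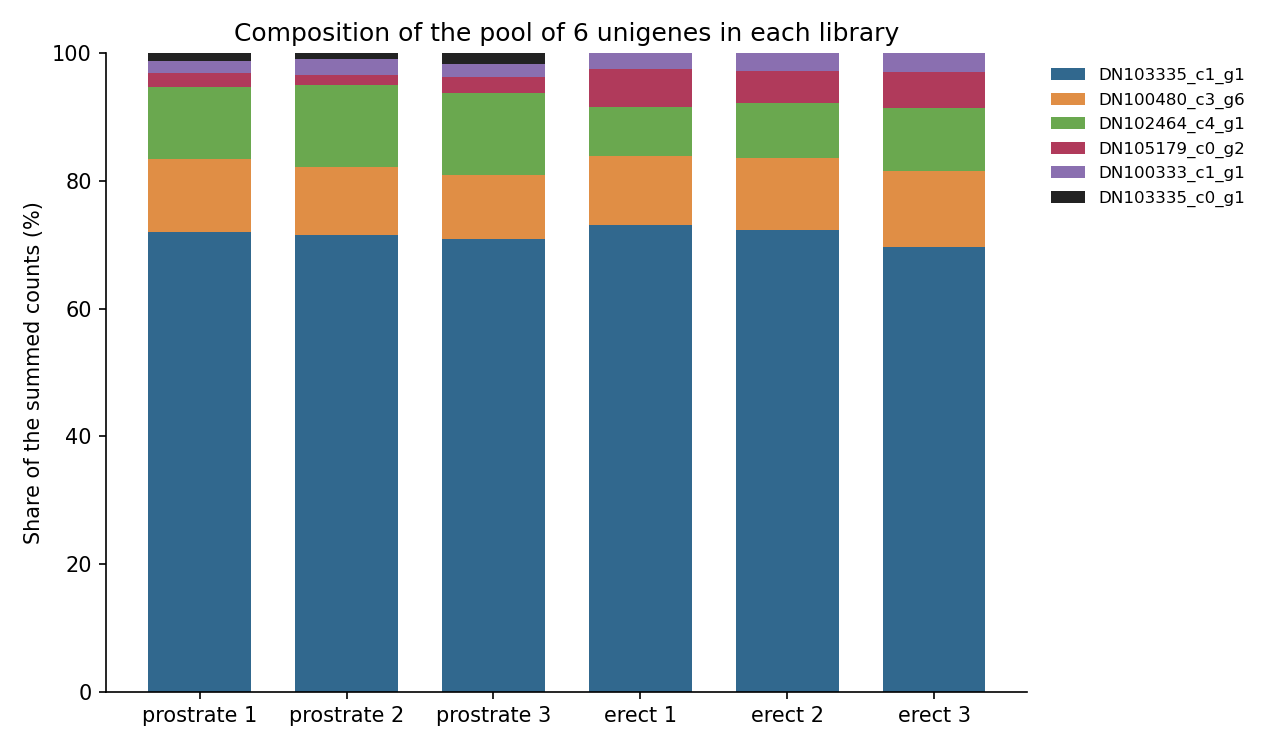
Share of each unigene in the summed counts of the 6, in percent, stacked for each of the 6 libraries. The block of DN103335_c1_g1 spans between 69.6 and 73.1% in all libraries, whereas the blocks of DN105179_c0_g2 are taller and those of DN102464_c4_g1 shorter in the erect shoots.

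Below the dominant member, some shares were separated and others were not. The shares of DN105179_c0_g2, DN102464_c4_g1 and DN103335_c0_g1, 3 of the 6 members, were fully separated between the types of shoots. DN105179_c0_g2 was included with its higher level in the erect shoots already reported, so this count is not independent of that result. With shares computed in the same way for each read cluster with several tested unigenes, 31.6% of unigenes had separated shares. These unigenes fell into 5768 groups of 2 or more, and in a group of 2 the shares mirror each other. Such groups stem from 1 read cluster each, unlike the pool, so the background is a rough one. Whether the pool exceeds it was not tested. The relative use of a member, its change against that of its whole pool, was tested on the whole table with diffSpliceDGE of edgeR, with other unigenes grouped by read cluster. It called 1 of the 6 members as used more and 1 as used less in the erect shoots, against 3.47 and 2.65% of the 16267 unigenes in groups. Because this test pools the spread over the unigenes of a group, which are not replicates, the exact test of each share is given beside it. With 3 libraries against 3, the smallest p of that exact test is 0.1. Counting error alone gave exact 95% Clopper-Pearson intervals of at most 0.954 percentage points to either side of their midpoint, which cover no other error.

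DN105179_c0_g2 had the largest gain in share. Prostrate replicates 1 to 3 had 15.1, 11.4 and 12.4 CPM, whereas erect replicates 1 to 3 had 59.0, 42.8 and 43.2 CPM. The lowest erect library was thus far above the highest prostrate library. DN105179_c0_g2 was called, with a log2 fold change of 1.90 and a standard error of 0.220 (edgeR adjusted p = 0.00171). As a share of the pool, it held 2.04, 1.61 and 2.37% in prostrate replicates 1 to 3, and 6.07, 5.08 and 5.66% in erect replicates 1 to 3. The mean share was 2.79 times as large in the erect shoots, 3.59 percentage points more (exact permutation test, two-sided p = 0.1). Its relative use rose by 1.51 on the log2 scale (edgeR adjusted p = 0.000702), a call that was lost without a filter on low counts (edgeR adjusted p = 0.0553). Although it was 1.98% of the mean prostrate level, it made up 17.4% of the net difference of the pool.

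Since DN105179_c0_g2 and DN103335_c1_g1 overlap in sequence, the decimals of their estimated counts were compared. A read divided between a pair of unigenes leaves decimals in both that sum to a whole number. With counts within 0.02 of a whole number taken as whole, the pair had decimals in 5 libraries, all but prostrate replicate 2. Within the same 0.02, the decimals summed to a whole number in 4 of these 5 libraries, and in erect replicate 1 they missed it by 0.04. In erect replicate 2, for example, the estimated counts were 11351.8202 for DN103335_c1_g1 and 796.1838 for DN105179_c0_g2. The levels of both are uncertain to the extent that reads were divided between them. DN105179_c0_g2 received 2.76, 2.21 and 3.23% of the counts of the pair in prostrate replicates 1 to 3, and 7.67, 6.55 and 7.52% in erect replicates 1 to 3. How much of this difference lies in reads specific to either unigene was not tested.

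The sum of the pair does not depend on how reads were divided within it. It was 481.9 ± 88.1 CPM (SD, n = 3) in prostrate and 665.6 ± 98.4 CPM (SD, n = 3) in erect libraries, which were fully separated. At a log2 fold change of 0.47 with a standard error of 0.210 (edgeR adjusted p = 0.19), the sum was not called, and it was at 0.30 without prostrate replicate 3. It held between 73.1 and 73.9% of the pool in prostrate and between 75.3 and 79.2% in erect libraries, a difference of 3.85 percentage points (exact permutation test, two-sided p = 0.1). With the pair as 1 member, the inverse Simpson index differed by -0.146 in the erect shoots (exact permutation test, two-sided p = 0.1), and DN103335_c0_g1 was the only member called for its level and for its relative use.

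DN102464_c4_g1 was not called for its level, and its share was smaller in the erect shoots. Prostrate replicates 1 to 3 had 84.6, 90.4 and 67.1 CPM, whereas erect replicates 1 to 3 had 73.2, 72.6 and 75.5 CPM. All erect libraries were within the range of the prostrate libraries. Its log2 fold change of -0.13, with a standard error of 0.174, was not called (edgeR adjusted p = 0.679), and it was -0.27 without prostrate replicate 3 and -0.06 without prostrate replicate 2. As a share of the pool, it held 11.4, 12.8 and 12.9% in prostrate replicates 1 to 3, and 7.53, 8.6 and 9.9% in erect replicates 1 to 3. The mean shares differed by -3.69 percentage points without overlap (exact permutation test, two-sided p = 0.1). A relative change of -0.52 on the log2 scale did not pass the test (edgeR adjusted p = 0.595). In limma-voom this change was -0.69 with an adjusted p of 0.0259, below the fold-change threshold.

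DN103335_c0_g1 had the fewest counts of the members in every library and fell to a trace in the erect shoots. Prostrate replicates 1 to 3 had 143, 94 and 155 counts, whereas erect replicates 1 to 3 had 8, 5 and 7. This was 9.02, 6.49 and 9.16 CPM against 0.385, 0.269 and 0.376 CPM, a ratio of 24.0 between the means. DN103335_c0_g1 was called, with a log2 fold change of -4.55 and a standard error of 0.358 (edgeR adjusted p = 0.000308). As a share of the pool, it held 1.22, 0.92 and 1.76% in prostrate replicates 1 to 3. In erect replicates 1 to 3 its share was 0.0396% (exact 95% Clopper-Pearson interval from 0.0171 to 0.078%), 0.0319% (0.0103 to 0.0744%) and 0.0493% (0.0198 to 0.102%). The upper limits of these intervals were below 0.744%, the lower limit in prostrate replicate 2, where the prostrate share was smallest. The mean shares differed by -1.26 percentage points without overlap (exact permutation test, two-sided p = 0.1). In the test of relative use, which pools the spread over unigenes, it fell by 4.94 on the log2 scale (edgeR adjusted p = 2.76e-10). DN103335_c0_g1 had whole counts in all 6 libraries, although DN103335_c1_g1 stems from the same read cluster. In the sum its loss weighed little, at -7.88 CPM of the net difference of 203.4 CPM.

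For the unigenes near *SPL13*, no difference in level or share passed a test. For DN100480_c3_g6, prostrate replicates 1 to 3 had 84.7, 74.6 and 52.3 CPM, whereas erect replicates 1 to 3 had 105.4, 94.6 and 90.3 CPM. Every erect library was above every prostrate library, but the log2 fold change of 0.46, with a standard error of 0.214, was not called (edgeR adjusted p = 0.205). Without prostrate replicate 3, which had the lowest level, it was 0.26. Its share lay between 10.03 and 11.4% in prostrate and between 10.8 and 11.8% in erect libraries (exact permutation test, two-sided p = 0.3). Its relative change was 0.07 on the log2 scale (edgeR adjusted p = 1), and between 0.03 and 0.12 as libraries were left out.

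For DN100333_c1_g1, prostrate replicates 1 to 3 had 14.8, 18.0 and 10.8 CPM, whereas erect replicates 1 to 3 had 23.3, 23.0 and 22.0 CPM. The erect libraries lay close together and above all prostrate libraries. With a log2 fold change of 0.65 and a standard error of 0.233, DN100333_c1_g1 was not called (edgeR adjusted p = 0.106). Its share was 2.2% ± 0.299 (SD, n = 3) for prostrate and 2.67% ± 0.249 (SD, n = 3) for erect libraries, with overlap (exact permutation test, two-sided p = 0.2). The relative change of 0.26 on the log2 scale was not called either (edgeR adjusted p = 1).

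Summed, DN100480_c3_g6 and DN100333_c1_g1 had 85.01 ± 19.4 CPM (SD, n = 3) in prostrate and 119.6 ± 8.4 CPM (SD, n = 3) in erect libraries. The sum had a log2 fold change of 0.49 with a standard error of 0.210 (edgeR adjusted p = 0.166), and that of the other 4 members one of 0.37 with a standard error of 0.203 (edgeR adjusted p = 0.273). Within libraries, the log2 ratio of these sums was higher by 0.14 in the erect shoots, with overlap (exact permutation test, two-sided p = 0.2). Without prostrate replicate 3, these values were 0.29 for the sum of both, 0.21 for that of the other members and 0.09 for the ratio. A difference between the groups of the clade was not resolved with these libraries.

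**Figure D3:**
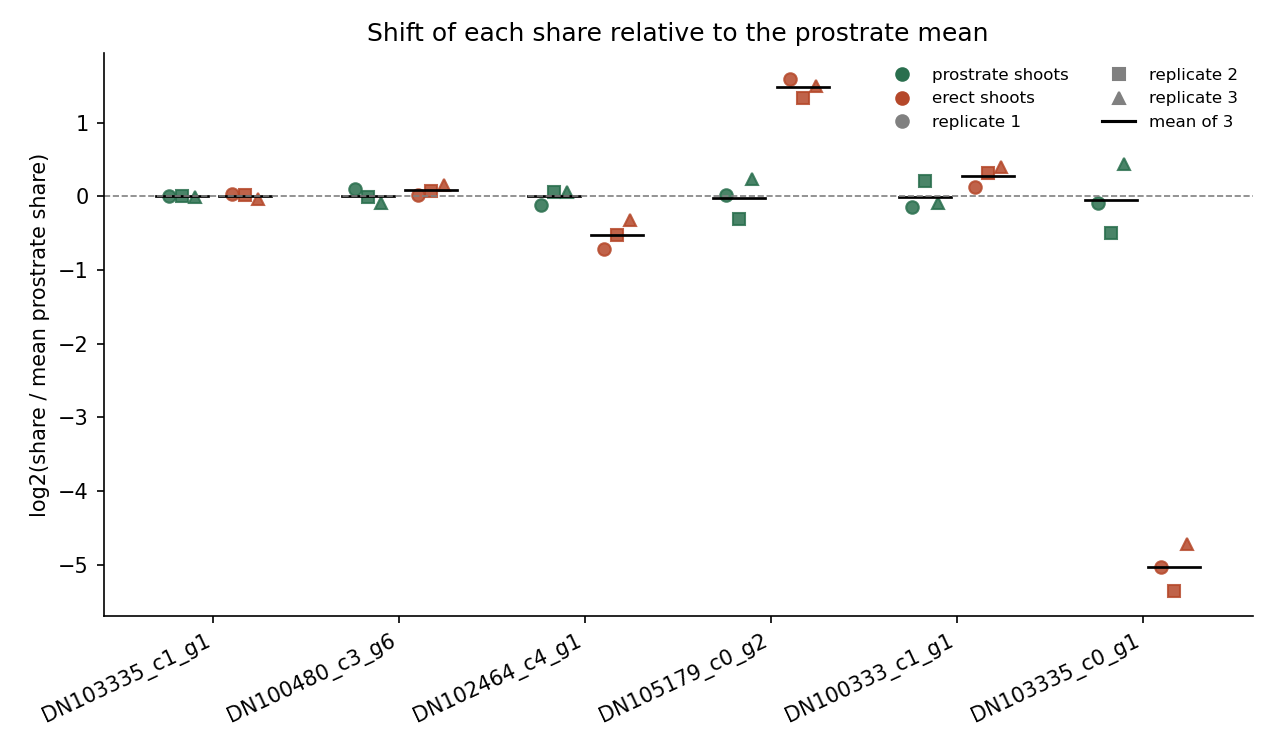
Log2 of each share over the mean prostrate share of the same unigene, for prostrate (green) and erect (red) libraries, with a symbol for each replicate number and bars for the mean of 3 log2 values. In all 3 erect libraries DN105179_c0_g2 lies above and DN102464_c4_g1 and DN103335_c0_g1 lie below the dashed line at 0, while the points of DN103335_c1_g1 stay close to it.

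With DN103335_c1_g1 set aside, the shares of the other 5 members were taken of their own sum. Because DN103335_c1_g1 held most of the pool in every library, these shares and their differences in percentage points are larger by construction. DN102464_c4_g1 then held 40.6, 45.0 and 44.3% in prostrate replicates 1 to 3, and 28.0, 31.1 and 32.6% in erect replicates 1 to 3. DN105179_c0_g2 held between 5.67 and 8.14% in prostrate and between 18.4 and 22.6% in erect libraries. DN100333_c1_g1 held 7.08, 8.92 and 7.08% in prostrate replicates 1 to 3, and 8.93, 9.88 and 9.52% in erect replicates 1 to 3, so it was narrowly separated too (exact permutation test, two-sided p = 0.1). DN103335_c0_g1 held between 3.23 and 6.04% in prostrate and between 0.115 and 0.162% in erect libraries. Only DN100480_c3_g6 overlapped among these 5 members, with 37.4% ± 3.12 (SD, n = 3) for prostrate and 40.0% ± 0.818 (SD, n = 3) for erect libraries. How often shares separate over the whole table once the largest unigene of a group is left out was not computed. The inverse Simpson index of these 5 members was 2.93 ± 0.0989 (SD, n = 3) for prostrate and 3.31 ± 0.0244 (SD, n = 3) for erect libraries, which were fully separated (exact permutation test, two-sided p = 0.1). The order by counts differed as well. DN100480_c3_g6 came second in all erect libraries, whereas DN102464_c4_g1 came second in prostrate replicates 2 and 3. In prostrate replicate 1 they were level, with estimated counts of 1342.57527 for DN100480_c3_g6 and 1341.05875 for DN102464_c4_g1.

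The ratio of a pair of members within a library is free of the scaling of libraries, and its difference between libraries is free of length. Of the 15 pairs, 12 had log2 ratios that were fully separated between the types of shoots, against 39.2% of all pairs of tested unigenes. Pairs share members, so they are not independent. Among the 6 pairs without DN103335_c0_g1 and DN105179_c0_g2, 3 were separated, nearer to that background. DN105179_c0_g2, DN102464_c4_g1 and DN103335_c0_g1 were each separated in all of their 5 pairs. The 3 pairs with overlap were those among DN103335_c1_g1, DN100480_c3_g6 and DN100333_c1_g1, and their log2 ratios differed by at most 0.28 between the types of shoots. The largest difference was that of DN105179_c0_g2 over DN103335_c0_g1, with a log2 ratio of 0.66 ± 0.20 (SD, n = 3) in prostrate and 7.03 ± 0.25 (SD, n = 3) in erect libraries. For DN103335_c1_g1 over DN102464_c4_g1, the log2 ratio was 2.53 ± 0.11 (SD, n = 3) in prostrate and 3.05 ± 0.23 (SD, n = 3) in erect libraries.

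**Figure D4:**
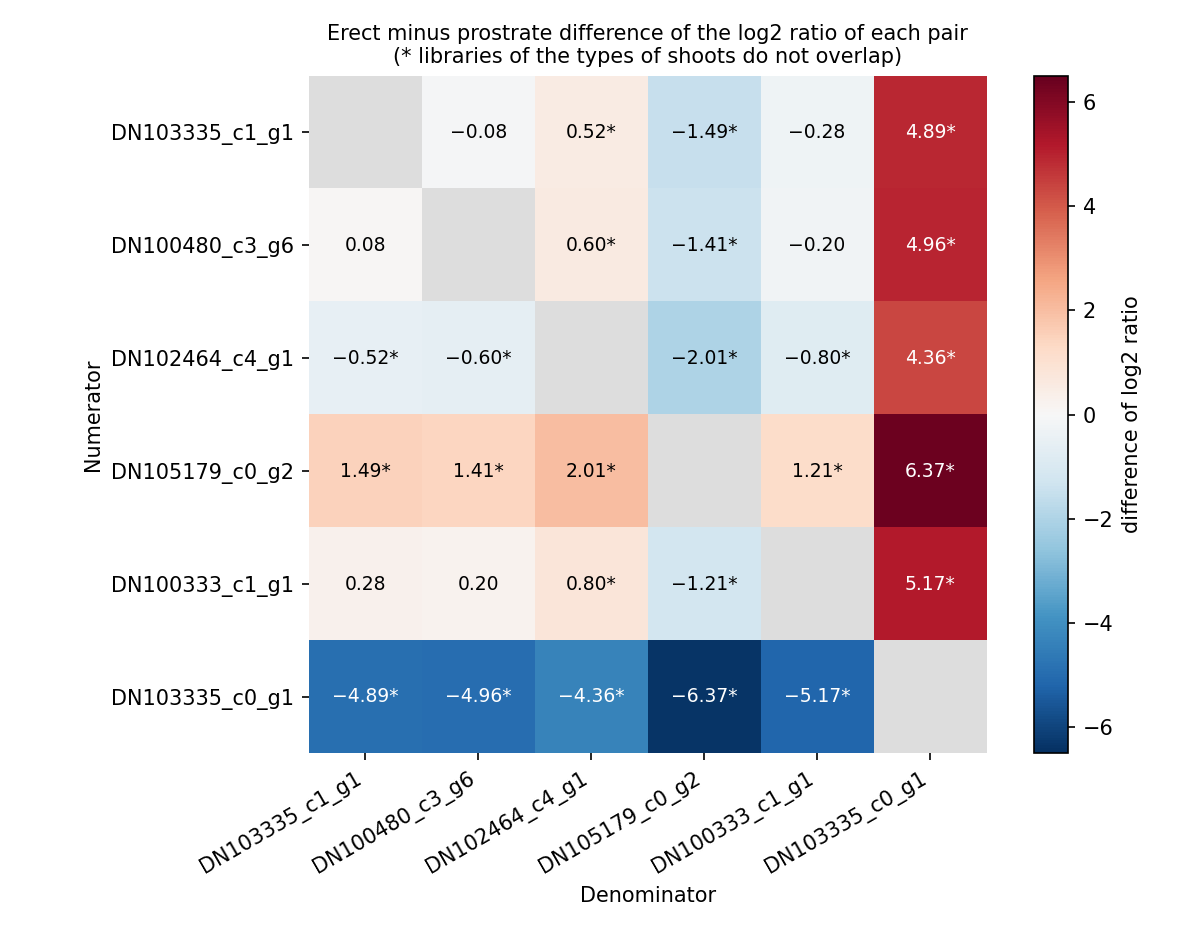
Erect minus prostrate difference in the log2 ratio of each pair of unigenes, with the numerator in rows, the denominator in columns, red for a higher and blue for a lower ratio in the erect shoots. A star marks the pairs without overlap, 12 of 15, and the values reach 6.37 for DN105179_c0_g2 over DN103335_c0_g1.

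As whole compositions, libraries of the same type of shoot were closer to each other than to those of the other type. Euclidean distances of centred log-ratios averaged 0.743 among prostrate libraries, 0.472 among erect libraries and 4.95 between the types (exact permutation test of between against within, one-sided p = 0.1, the smallest possible). Without DN103335_c0_g1 these averages were 0.493, 0.33 and 1.51, so most of the distance came from this rare member. Without DN105179_c0_g2 as well they were 0.286, 0.235 and 0.626, and the smallest distance between the types, 0.447, was still above the largest within them, 0.352. The total variation distance weighs members by their counts and gives the part of the pool that would have to be reassigned. It averaged 5.66 percentage points between the types, 2.0 among prostrate and 2.78 among erect libraries, and its smallest value between the types, 4.23, exceeded its largest within them, 3.87.

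The 6 members come from 5 read clusters of the assembly, which hold another 28 unigenes. Of these, 20 had at least 10 counts, and 7 stem from the same component as a member. In the component of DN100480_c3_g6, DN100480_c3_g3 had 21.6 ± 9.76 CPM (SD, n = 3) in prostrate and 46.3 ± 6.03 CPM (SD, n = 3) in erect libraries (log2 fold change 1.10 with a standard error of 0.338, edgeR adjusted p = 0.0688). DN100480_c3_g5 had 10.6 ± 3.89 CPM (SD, n = 3) in prostrate and 23.7 ± 6.09 CPM (SD, n = 3) in erect libraries (log2 fold change 1.15 with a standard error of 0.327, edgeR adjusted p = 0.053). Neither was called, though both were fully separated between the types of shoots. DN105179_c0_g1, from the component of DN105179_c0_g2, was not called either (log2 fold change 0.53, edgeR adjusted p = 0.362). DN100333_c1_g2, from the component of DN100333_c1_g1, had 3.68 ± 0.717 CPM (SD, n = 3) in prostrate and 3.22 ± 0.862 CPM (SD, n = 3) in erect libraries (log2 fold change -0.19, edgeR adjusted p = 0.764). The remaining 3 had between 12 and 39 counts in all libraries together and were not tested. Whether these are pieces of the same *SPL*s was not tested.

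With each component summed, that of DN100480_c3_g6 held between 13.0 and 16.4% of the pool in prostrate and between 16.7 and 18.6% in erect libraries, without overlap. The component of DN103335_c1_g1 then held 66.5% ± 0.208 (SD, n = 3) in prostrate and 64.7% ± 1.35 (SD, n = 3) in erect libraries, also without overlap, so the similar shares of the dominant member depend on which unigenes are counted with the pool. The shares of DN102464_c4_g1 and DN103335_c0_g1 still differed by -3.69 and -1.18 percentage points. For DN100333_c1_g1, the difference was 0.176 percentage points with its component summed, against 0.477 without.

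With the same tolerance of 0.02, DN100480_c3_g6 had decimals in 4 libraries. A search of the whole table found 1 unigene, DN103122_c0_g1 of another read cluster, whose decimals complemented them within 0.02 in all 4, and how often such a match turns up for other unigenes was not tested. For DN103122_c0_g1, prostrate replicates 1 to 3 had 30.5, 34.2 and 13.5 CPM, whereas erect replicates 1 to 3 had 41.3, 41.3 and 35.1 CPM. These levels, too, were separated without being called (log2 fold change 0.59, edgeR adjusted p = 0.291).

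Outside the clade, the 6 other *SPL* unigenes and 8 *AP2*-like unigenes were set beside the pool. The text of the study names only some of them, and their families were not checked against sequences. *AP2*-like genes comprise the *euAP2* genes, which in flowering plants delay flowering and are targets of the microRNA miR172, and the *ANT* genes, which act in organ growth. Of the other *SPL*s, 1 was called higher and 1 lower in the erect shoots, where 7.94 and 5.31% of all tested unigenes were. Of the 8 *AP2*-like unigenes, 6 passed the filter, of which 5 were called lower in the erect shoots, beside the same 5.31%. Median log2 fold changes were -0.36 for the other *SPL*s and -2.23 for the 6 tested *AP2*-like unigenes, against -0.01 for all tested unigenes.

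Among the other *SPL*s, the log2(CPM + 1) of DN101273_c2_g1 was the most like that of the pool (Pearson's r = 0.891 over 6 libraries), with 16.5 ± 5.22 CPM (SD, n = 3) in prostrate and 52.0 ± 11.4 CPM (SD, n = 3) in erect libraries. The least like it was DN106508_c2_g1 (r = -0.778), with 74.9 ± 21.6 CPM (SD, n = 3) in prostrate and 11.4 ± 0.743 CPM (SD, n = 3) in erect libraries. Among the *AP2*-like unigenes, DN97829_c1_g1 was the most like the pool (r = 0.618), with 2.73 ± 0.504 CPM (SD, n = 3) in prostrate and 3.47 ± 0.345 CPM (SD, n = 3) in erect libraries. DN93809_c0_g2, with 68 counts over the prostrate and 2 over the erect libraries, was the least like it (r = -0.879). Each r is a description over the same 6 libraries, which fall into the types of shoots, and was not tested.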

How the data were processed

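Members and lists of unigenes were chosen with earlier results of these data known. Per the labels, Trimmomatic 0.36 and HISAT2 2.1.0 were used, without a stated role for the latter. Unigenes are the longest transcripts of the genes in a Trinity assembly by the authors. Estimated counts of each unigene in each library were deposited without scaling for depth or length, and the counting tool was not given in the sources used here.

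For tests, estimated counts were rounded and fitted with edgeR 4.0.16 under R 4.3.3, with TMM scaling, filterByExpr (minimum count 10, minimum total 15), glmQLFit and glmQLFTest, and no covariate besides the type of shoot. Adjustment was over 23275 unigenes. Standard errors were derived from the test, as the absolute log2 fold change fitted without a prior count over the square root of its F statistic. For a pool, the summed counts took the place of its members. Relative use was tested with diffSpliceDGE. Shares, log-ratios (0.5 counts added) and distances rest on unrounded counts, with exact permutation tests in scipy 1.17.1. Depth ranged from 15679196 to 20244006 counts. No library was a copy of another (chi-square per degree of freedom of 28.3 or more within a type of shoot). Prostrate replicate 3 stood apart from prostrate replicates 1 and 2, at 85.9 and 105.5, against 34.6 between those. Pairs of erect libraries lay between 28.3 and 66.7. Tests were checked on simulated data.

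Named unigenes are the members, the most and the least similar of each list, unigenes of the members' components and the partners in decimals. Alternatives were DESeq2 1.42.0, limma-voom (limma 3.58.1), other scalings and filters, leaving out each library, a block for the replicate number, the overlapping pair summed, other pseudocounts and tolerances and, chosen after seeing the data, components summed.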

Additional observations from a re-analysis of the deposited data

How the results depend on the processing

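DN103335_c0_g1 was called for its level in each alternative that tested levels, and for its relative use in each that tested it, which DESeq2 and the summed components did not. DN105179_c0_g2 was called likewise wherever it was kept separate, except that its relative use was not called without a filter, where 1 member was called. With the overlapping pair summed, 1 member was called for its level and 1 for its relative use. Then 7 of the remaining log-ratios were separated, against 12 of 15 with the pair kept separate. Summing leaves fewer pairs and removes those of DN105179_c0_g2, which were separated in 5 of 5. The log2 fold change of the pool ranged from 0.23 to 0.48 as libraries were left out and was 0.50 with library totals, which moved the median over all tested unigenes from -0.01 to 0.10, and its adjusted p in edgeR and the other tools lay between 0.142 and 0.5. The inverse Simpson index, which differed by 0.00106, differed by between -0.0444 and 0.0314 as libraries were left out and by -0.146 with the pair summed. With components summed it differed in the other direction, by 0.0788. For DN103335_c1_g1, the difference in share was -0.445 to 1.29 percentage points as libraries were left out and -1.81 with components summed, and the relative use was -0.00873 to 0.0252 as libraries were left out and -0.0331 in limma-voom. Its relative use can move little by construction, because it makes up most of the pool it is set against. Components summed gave 5 separated shares, and how often such sums separate over the whole table was not computed. At a tolerance of 0.05, 3 members had a partner in decimals, against 1 at 0.02.

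Same-numbered libraries did not deviate together (correlations of -0.32, 0.05 and -0.14 across unigenes). Deviations from a mean of 3 libraries constrain each other, so this cannot settle whether the numbers pair the samples. With the replicate number as a block, 2 members were called for their level and 2 for their relative use, and the pool had a log2 fold change of 0.40 (edgeR adjusted p = 0.271). Levels of DN103335_c0_g1 in the erect shoots rest on 5 to 8 counts.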
